A study of Mus musculus with 16 samples.

Results

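Broad H3K18la domains are wide stretches of chromatin carrying lactylated lysine 18 of histone H3 in macrophages of the injured mouse muscle. H3K18la peaks of 4 libraries were merged where they overlapped by at least 1 bp on chromosomes 1 to 19, X and Y, which gave 29837 regions. Of these, 9325 held a peak in all 4 libraries and are called shared regions, and the 263 shared regions that were 8 kb wide or more are the broad domains. They made up 2.82% of the shared regions but 9.44% of the bases in them. The width and the H3K18la calls chose the domains, so the widths and heights of H3K18la at the domains are given as a description with no test. The change of H3K18la with time was tested, but its calls are not independent of the rule. The rule did not use the time points or the other marks.

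The libraries came from macrophages of the ischemic calf muscle, sorted as CD45+CD11b+F4/80+CD64+ cells, of male wild type C57BL6J mice aged 8 to 12 weeks. The CD45 stain of the digested tissue also marks circulating cells left in it. All mice had hindlimb ischemia by ligation of the femoral artery and no mutant allele. Cells were taken at 4 or at 2 days post injury (dpi), and no uninjured group is among the libraries. CUT&Tag, in which an antibody guides a transposase to a chromatin mark, was run for H3K18la, H3K27ac, H3K4me3 and H3K27me3. There were 2 libraries for each mark and time point, 16 in all. The labels do not say which libraries share mice or cells, nor how many mice gave a library, so p-values measure the spread between libraries.

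Lactylation of histone lysines draws on lactate, made by glycolysis in the cell or taken up from outside, and so links chromatin to the metabolic state, which shifts in macrophages as they move from clearing damaged muscle to supporting its repair. H3K18la is found mainly at active promoters and enhancers. H3K27ac marks active promoters and enhancers, H3K4me3 marks active promoters, and H3K27me3 is laid down by Polycomb complexes at silenced genes. Wide stretches of H3K27ac or of H3K4me3 are known from genes that define a cell's identity.

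Some libraries stood apart before any comparison was made. The H3K18la library of 2 dpi replicate 1 had the longest list, with 27578 peaks, while the other H3K18la lists had 15190 to 17578. The H3K27ac library of 4 dpi replicate 1 had 6154 peaks of 8 kb or more, while the other H3K27ac lists had 59 to 354, so several H3K27ac results are also given without it. The deposited coordinates were of the mouse build GRCm39, for which no annotation was used here. Domains are therefore named by position and not by gene, and the sorting markers could not be checked.

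The domains were 8003 to 23590 bp wide, with a median of 9638 bp, and the other 9062 shared regions had a median of 2591 bp. Most domains lay near the threshold: 150 were 8 to 10 kb wide, 63 were 10 to 12 kb, 28 were 12 to 16 kb, 15 were 16 to 20 kb and 7 were 20 kb or wider. Within 500 bp of the threshold there were 43 regions on the wide side and 84 on the narrow side. The mean share of their bases under H3K27ac was 84.8% just inside and 81.5% just outside, under H3K4me3 44.5% and 43.9%, and under H3K27me3 1.24% and 2.25%. The number of domains rested partly on the longest list: without the H3K18la library of 2 dpi replicate 1, 165 regions shared by the remaining libraries reached 8 kb.

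A domain was seldom one unbroken peak in every library. A single H3K18la peak of 8 kb or more lay in 35 domains in 4 dpi replicate 1, in 90 in 4 dpi replicate 2, in 130 in 2 dpi replicate 1 and in 41 in 2 dpi replicate 2. Such a peak was found in all 4 libraries at 15 domains, in 3 at 14, in 2 at 51, in 1 at 92 and in none at 91. The bases called in all 4 libraries made up 57.9% of the domains, with a median of 5574 bp per domain, and at 53 domains these bases alone reached 8 kb. At 2 domains no base was called in all 4 libraries. They lay on chromosome 7 (79851790 to 79860355) and chromosome 9 (3065620 to 3077401). There the merge had chained peaks that lay beside each other.

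The widest domain lay on chromosome X from 168768642 to 168792231 and spanned 23590 bp. H3K18la peaks covered 23254 and 21277 bp of it at 4 dpi, and 21744 and 22167 bp at 2 dpi. Its peak maximum, ranked among all peaks of the same list, stood at the percentiles 99.9 and 99.9 at 4 dpi and 99.9 and 99.9 at 2 dpi. The domain was wide and tall in all 4 libraries, and the time points overlapped in covered length. It also had a peak in all 16 lists, those of H3K27me3 included, and whether it is a blacklisted place was not checked.

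The second widest, on chromosome 14 from 47593779 to 47616194, spanned 22416 bp and was also tall, with percentiles of 99.9 and 99.8 at 4 dpi and of 99.9 and 99.8 at 2 dpi. On chromosome Y, the domain from 90774550 to 90795400 (20851 bp) also had a peak in all 16 lists. It was called nearly whole in every H3K18la library, with 98.9% of its bases under a peak in all 4. By contrast, on chromosome 6 from 47627266 to 47645461 (18196 bp), peaks covered 15364 and 10083 bp at 4 dpi and 17789 and 5708 bp at 2 dpi, and only 23.5% of the bases were called in all 4 libraries. Its maxima were moderate, with percentiles of 78.4 and 72.8 at 4 dpi and of 70.8 and 60.4 at 2 dpi. Width and height did not always go together.

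The third widest, on chromosome 16 from 3459215 to 3481205 (21991 bp), differed from the rest of the 10 widest in its other marks. H3K18la covered 20026 and 19024 bp of it at 4 dpi and 21991 and 21528 bp at 2 dpi, yet no H3K4me3 peak met it in any library. H3K27ac covered 100% and 8.21% of its bases at 4 dpi, and 29.5% and 4.60% at 2 dpi, the 100% being in the library with the very wide peaks. H3K27me3 covered 48.1% and 24.4% at 4 dpi, and no base at 2 dpi. The remaining 5 of the 10 widest were on chromosome 9 (37139541 to 37160751), chromosome 15 (76072324 to 76093419, and 31334675 to 31354086), chromosome 13 (49341312 to 49361541) and chromosome 7 (141936084 to 141954766). These 5, and the domains on chromosomes X, 14, Y and 6, had H3K4me3 in all 4 libraries.

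**Figure D1:**
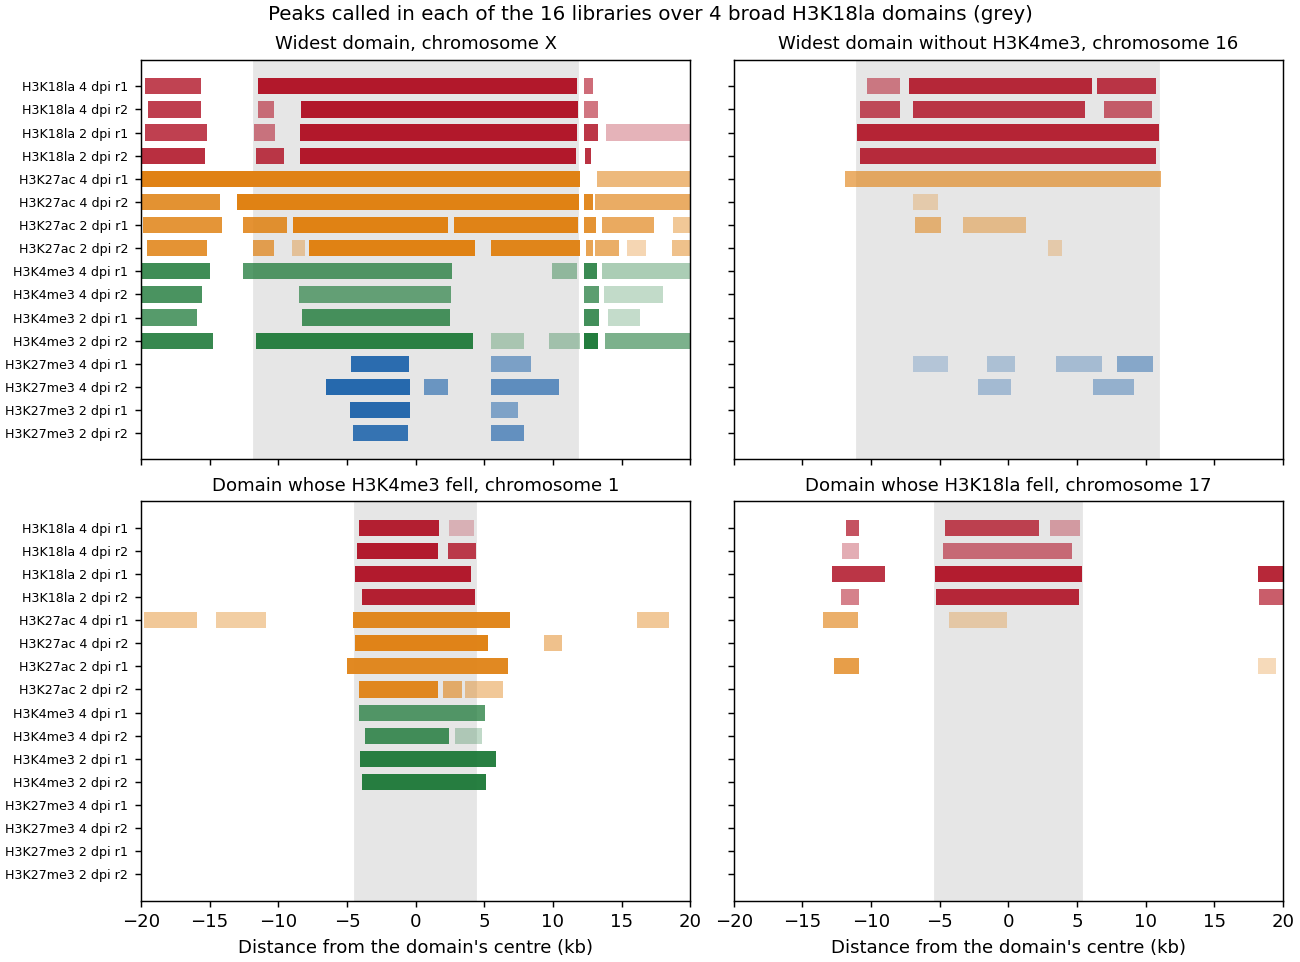
Called peaks of all 16 libraries at 4 broad H3K18la domains, with distance from the domain's centre in kb on the x axis and one row per library (r, replicate). Bars are peaks, darker where the peak maximum ranks higher in its list, and grey marks the domain. The widest domain (23590 bp, chromosome X) carried all 4 marks, the one on chromosome 16 had no H3K4me3, the one on chromosome 1 had lower H3K4me3 ranks at 4 than at 2 dpi, and the one on chromosome 17 met an H3K27ac peak in 1 library only.

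The domains tended to be tall as well as wide. The median percentile of the peak maximum at the domains was 94.3 and 96.0 at 4 dpi and 97.3 and 94.7 at 2 dpi, while at the other shared regions it was 62.0 and 67.7 at 4 dpi and 79.5 and 62.4 at 2 dpi. Mean signal per called base at the domains was 60.0 and 41.1 at 4 dpi and 35.1 and 25.8 at 2 dpi, against 43.4 and 29.2 at 4 dpi and 23.1 and 17.9 at 2 dpi at the other shared regions. The signal is fragment coverage that was not scaled between libraries, so these values can be compared within a library only, and there the domains were higher in each of the 4. The place of the maximum was steady at many domains: the maxima of the 4 libraries lay within 500 bp of each other at 122 domains, and more than 4 kb apart at 66.

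The domains were spread over all chromosomes used, with 27 on chromosome 2, 21 each on chromosomes 6 and 10, 20 on chromosome 1, 3 on chromosome 18, 2 on chromosome X and 1 on chromosome Y. In all, 59 domains lay within 50 kb of another. Groups of 3 were found on chromosome 8 (127550416 to 127615542), chromosome 9 (3011392 to 3077401) and chromosome 2 (167578862 to 167622740). On chromosome 6, 2 pairs lay close together, from 47627266 to 47663973 and from 47718894 to 47743609. Such neighbours are not independent of each other in the counts of domains.

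To ask which other marks share these stretches, the peaks of each other library were laid over the domains. Along domains scaled to the same width, H3K27ac covered 88.8% ± 9.81 (SD, n = 4 libraries) of positions in the centre (0.25 to 0.75 of the width), 74.4% ± 17.9 in the outermost 10% at each end and 42.5% ± 20.2 in the flanks. H3K4me3 covered 49.4% ± 6.58 in the centre, 31.4% ± 6.25 at the ends and 11.7% ± 2.43 in the flanks. H3K27me3 stayed at 3.16% ± 1.34 in the centre, 2.10% ± 0.82 at the ends and 2.39% ± 0.59 in the flanks. H3K27ac at the ends ranged from 52.6% to 96.4% between libraries. At the other shared regions the centre, ends and flanks had 84.0%, 59.5% and 35.1% under H3K27ac. There H3K4me3 had 49.1%, 28.1% and 11.1%, and H3K27me3 3.09%, 2.54% and 2.36%, close to the domains. H3K18la itself was called in 20.96% ± 4.29 of flank positions next to domains, against 7.78% ± 2.51 next to the other shared regions, although the flanks are wider in base pairs at the domains.

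**Figure D2:**
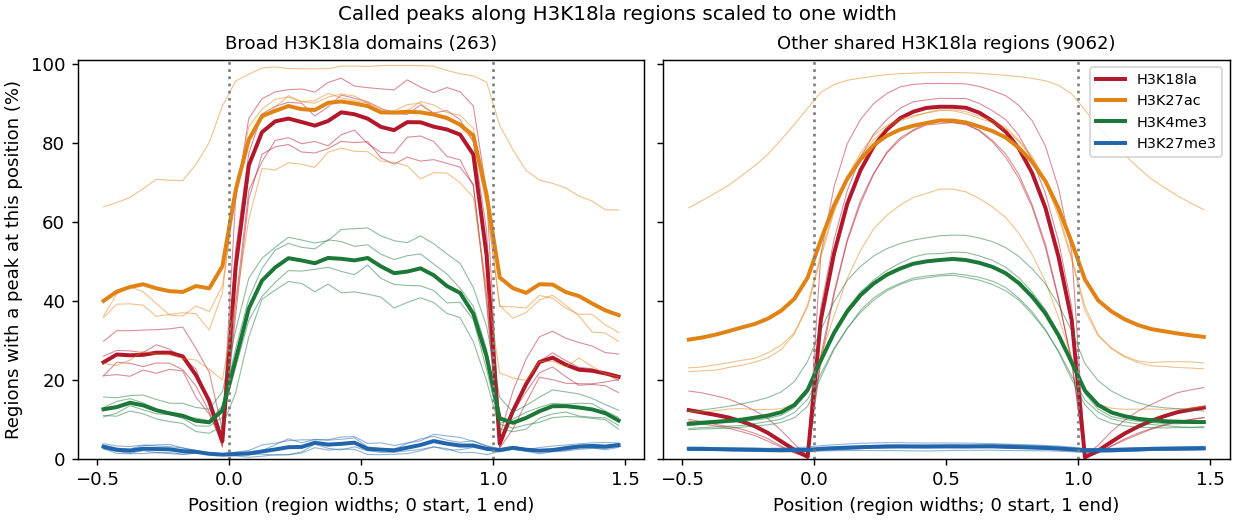
Percent of regions with a called peak at each position along broad H3K18la domains (left) and other shared H3K18la regions (right), scaled so that 0 is the start and 1 the end, with flanks of 0.5 region widths on each side. Thick lines are means of 4 libraries and thin lines single libraries. At the domains H3K27ac covered 88.8% of the centre and 74.4% of the ends, against 85.4% and 62.9% for H3K18la. H3K4me3 covered 49.4% of the centre, where H3K27me3 covered 3.16%.

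H3K27ac accompanied nearly all domains. A peak was present in all 4 H3K27ac libraries at 260 of the 263 domains (98.9%), against 79.0% of the other shared regions, a share that grows with width alone because a wide region meets more peaks. Per base, H3K27ac covered 98.6% and 86.4% of the domains at 4 dpi and 86.6% and 70.1% at 2 dpi. At the other shared regions it covered 96.4% and 77.1% at 4 dpi and 77.7% and 54.4% at 2 dpi. The mean was 85.4% ± 11.7 at the domains and 76.4% ± 17.2 at the other regions (SD, n = 4), a difference of 9.01 percentage points that each of the 4 libraries showed. By an exact 2-sided sign-flip permutation test p was 0.125, the smallest that 4 libraries allow, and 0.375 after adjustment over the 3 marks.

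The H3K27ac peaks at the domains were also among the tallest of their lists. Strength here is the percentile of the tallest peak meeting a region, and regions that no peak of the mark met were left out. A wide region meets more peaks, so this value can rise with width alone. The median percentile of the H3K27ac maximum was 96.5 and 96.3 at 4 dpi and 93.8 and 92.0 at 2 dpi at the domains. At the other shared regions it was 85.8 and 77.0 at 4 dpi and 73.1 and 67.4 at 2 dpi. The 2 sets of 4 values did not overlap, and the mean was 94.7 ± 2.14 at the domains and 75.8 ± 7.72 at the other regions (SD, n = 4). Every library showed the difference, 18.8 percentile points on average (p = 0.125 by the exact sign-flip permutation test, adjusted p = 0.188, n = 4).

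Against all other shared regions, the strength difference was larger for H3K27ac than for the other marks, but this depended on what the domains were set against. The H3K27me3 values rest on the few domains that its peaks met, 19 and 18 at 4 dpi and 16 and 13 at 2 dpi. Of the other shared regions, 82.5% to 97.1% were met by H3K27ac peaks, 51.1% to 58.8% by H3K4me3 and 3.22% to 5.47% by H3K27me3. The marks are therefore compared on unlike subsets of regions. For H3K4me3 the domains exceeded the other shared regions by 0.61 percentile points on average, and for H3K27me3 by 1.74. An exact permutation test of 4 against 4 libraries gave p = 0.0286, the smallest possible, for H3K27ac against each of these, with differences of 18.2 and 17.1 points (adjusted p = 0.0429 over 3 contrasts). Without the H3K27ac library of 4 dpi replicate 1 the differences were 20.9 and 19.8 points with exact p = 0.0286. Set against shared regions 4 to 8 kb wide only, which are closer in width, the domains were stronger by 10.9 points for H3K27ac, 5.51 for H3K4me3 and 9.10 for H3K27me3, each in 4 of 4 libraries (p = 0.125 each by the exact sign-flip permutation test, the smallest it can give). The contrasts were then 5.41 points (exact permutation p = 0.0571, adjusted p = 0.129) and 1.82 points (p = 0.429), and the call was lost. Ranked by total signal in place of the maximum they were 8.29 points (exact permutation p = 0.0857) and 6.999 points (p = 0.314). This contrast was chosen after the values were seen. For the share of bases, the difference for H3K27ac exceeded that for H3K4me3 by 6.62 points (exact permutation p = 0.114, n = 4 each) and that for H3K27me3 by 8.98 points (p = 0.0286, adjusted p = 0.0857). Without 4 dpi replicate 1 these were 8.92 and 11.3 points, each with exact permutation p = 0.0286.

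**Figure D3:**
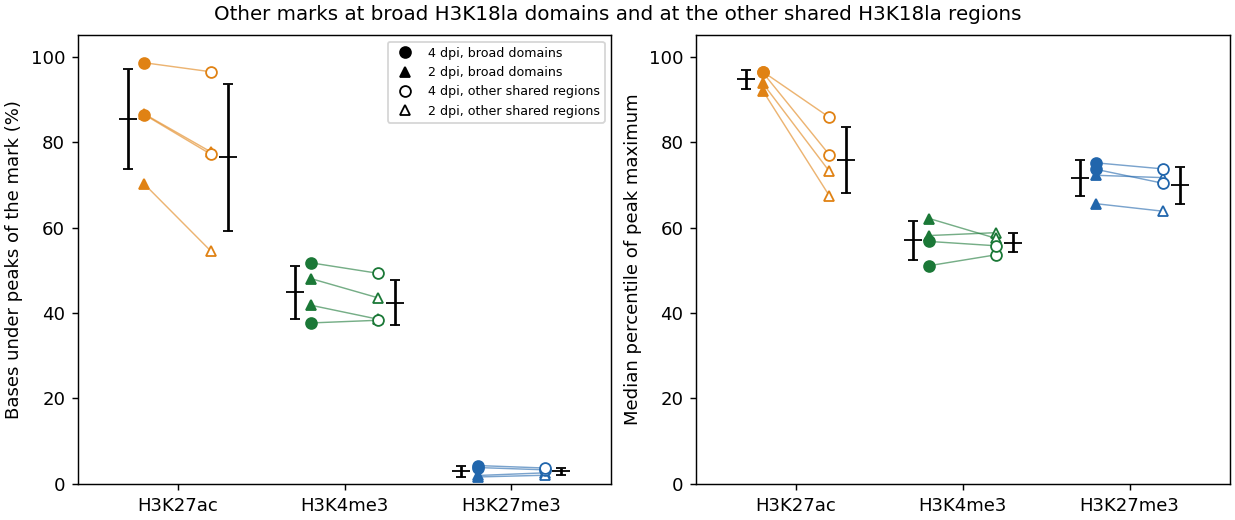
Share of bases under peaks of each mark (left, in percent) and median percentile of the peak maximum within its list (right), at broad H3K18la domains (filled) and at the other shared H3K18la regions (open), one line per library, with mean and SD of 4 libraries in black. Every H3K27ac line slopes down to the right, with mean strength of 94.7 at the domains and 75.8 at the other regions, while mean H3K4me3 strength was 57.02 and 56.4 in these 2 sets. Regions that no peak of the mark met are left out on the right.

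Wide H3K18la and wide H3K27ac often lay at the same place. A shared H3K27ac region of 8 kb or more met 256 domains (97.3%), but one library with very wide peaks set much of this. Without it, 205 domains (77.9%) met such a region, against 8.85% of the other shared H3K18la regions, and 102 domains lay wholly within one. Seen from the other side, 202 of the 740 wide H3K27ac regions in those 3 libraries (27.3%) met a domain. Wide H3K4me3 overlapped less: 80 domains (30.4%) met an H3K4me3 region of 8 kb or more, against 2.82% of the other shared regions, and 75 of 320 such regions (23.4%) met a domain. The shares rise with the width of a region and were not tested.

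The cover by H3K27ac ranged widely between single domains. H3K27ac covered 100% of the domain on chromosome 6 from 47718894 to 47730847 in every library, and on average 99.97% of the domain on chromosome Y and 99.7% of that on chromosome 10 from 60579103 to 60588943. The lowest mean cover was 8.99% at the domain on chromosome 9 starting at 3065620, 9.71% on chromosome 17 (48498654 to 48509375) and 30.8% at the one on chromosome 7 starting at 79851790. At the first 2 of these, all of the H3K27ac cover came from the library of 4 dpi replicate 1, at 36.0% and 38.8% of their bases, and the other 3 libraries had no peak there. At the one on chromosome 7 H3K27ac covered 98.4% and 9.69% at 4 dpi, and 0% and 15.05% at 2 dpi, again highest in the library with the very wide peaks.

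H3K4me3 split the domains into classes. It was present in all 4 H3K4me3 libraries at 189 domains (71.9%, against 46.0% of the other shared regions), in 1 to 3 at 49 and in none at 25 (9.51%, against 36.8%). These shares depend on width, because a wide region meets more peaks. Per base, H3K4me3 covered 51.7% and 37.7% of the domains at 4 dpi and 41.8% and 48.03% at 2 dpi, against 49.3% and 38.3% at 4 dpi and 38.6% and 43.6% at 2 dpi at the other shared regions. The difference of 2.38 percentage points was positive in 3 libraries (p = 0.25 by the exact sign-flip permutation test, adjusted p = 0.375, n = 4). An H3K4me3 peak met 87.5% and 75.3% of the domains at 4 dpi and 84.4% and 87.8% at 2 dpi. Of the other shared regions it met 58.8% and 51.1% at 4 dpi and 52.3% and 55.9% at 2 dpi. The rest were left out of the strength values. The strength of H3K4me3 peaks differed by 0.61 percentile points, positive in 2 of 4 libraries, with mean percentiles of 57.02 ± 4.56 at the domains and 56.4 ± 2.24 at the other regions (p = 0.75 by the same exact test, n = 4). The difference was 9.50 points for domains of 10 kb or more and 5.51 against shared regions 4 to 8 kb wide, each positive in 4 of 4 libraries, and -3.57 at a width of 6 kb, negative in 4 of 4.

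Where shared H3K4me3 regions were present, at 185 domains, they covered 65.6% of the domain on average. The rule chose wide H3K18la from the merge of 4 libraries, so that H3K18la reaching beyond H3K4me3 follows in part from it. The bases called for H3K18la in all 4 libraries made up 57.9% of all the domains. In those domains the H3K18la maximum lay inside the H3K4me3 region in 90.8% and 84.3% of cases at 4 dpi and in 86.5% and 87.6% at 2 dpi. A domain met 1 shared H3K4me3 region in 161 cases, 2 in 21 cases and 3 in 3 cases, which means that a domain can span several such regions. The highest cover was seen on chromosome 9 (3011392 to 3026890, and 3027072 to 3038339), with 100% in every library, and on chromosome 18 (55118297 to 55126556), with 99.6% on average. Both domains on chromosome 9 lay in 1 H3K4me3 region, from 3000001 to 3038385, at the percentile 99.99 of total signal in every library. They also had H3K27me3 peaks in every library, and whether they are blacklisted places was not checked. At the domain on chromosome 9 from 37139541 to 37160751, among the widest, H3K4me3 covered 14.8% and 13.7% at 4 dpi and 21.9% and 23.3% at 2 dpi.

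The 25 domains without any H3K4me3 peak had lower H3K27ac ranks in each library than the 189 with H3K4me3 in all libraries. The median percentile of the H3K27ac maximum was 87.2 and 85.2 at 4 dpi and 82.8 and 83.6 at 2 dpi without H3K4me3, against 97.2 and 97.0 at 4 dpi and 95.3 and 93.8 at 2 dpi with it. The means were 84.7 ± 1.94 and 95.8 ± 1.62 (SD, n = 4). The difference of -11.1 points had the same sign in each of the 4 libraries, with p = 0.125 by the exact sign-flip permutation test. The share of bases under H3K27ac was 64.7% ± 21.2 without and 89.0% ± 9.92 with H3K4me3, with differences of -5.27 and -30.8 points at 4 dpi and of -29.1 and -32.3 at 2 dpi. H3K27ac was present in all 4 libraries at 22 of the 25. Their median width was 9266 bp, against 9789 bp for those with H3K4me3.

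The widest domains without H3K4me3, beside the one on chromosome 16, were on chromosome 11 from 121684233 to 121700239 (16007 bp, 80.7% of bases under H3K27ac on average), chromosome 9 from 3065620 to 3077401 (11782 bp), chromosome 10 from 31411830 to 31423536 (11707 bp, 65.4%) and chromosome 14 from 31106794 to 31118149 (11356 bp, 85.8%). A second domain on chromosome 11, from 121630340 to 121640279, also lacked H3K4me3 and lay within 50 kb of the first, with 95.5% under H3K27ac. H3K27ac thus covered most of the stretches on chromosomes 10, 11 and 14 although no H3K4me3 peak was called there. They were singled out after their values were seen.

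H3K27me3 was rare at the domains. No H3K27me3 peak met 242 of the 263 (92.0%, against 93.4% of the other shared regions), and it was present in all 4 libraries at 11 domains. It covered 3.84% and 4.30% of the bases of domains at 4 dpi and 1.98% and 1.64% at 2 dpi, against 3.30% and 3.73% at 4 dpi and 2.598% and 2.03% at 2 dpi at the other shared regions. The mean difference of 0.022 percentage points was positive in 2 libraries (p = 1 by the exact sign-flip permutation test, n = 4). The strength of its peaks differed by 1.74 percentile points, positive in 4 of 4 (exact p = 0.125, adjusted p = 0.188, n = 4). This rests on the domains that an H3K27me3 peak met, 19 and 18 at 4 dpi and 16 and 13 at 2 dpi.

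The highest mean H3K27me3 cover was 76.5% at the domain on chromosome 7 starting at 79851790, 62.6% on chromosome 13 (120057042 to 120065763) and 54.1% on chromosome 6 (47718894 to 47730847). The domain on chromosome 7 had no H3K4me3 and was one of the 2 with no base called in all H3K18la libraries. The one on chromosome 13 ranked at a percentile of 99.9 or above for H3K18la in every library, and had all 4 marks. In all, 10 domains had a peak in all 16 lists, among them those on chromosomes X and Y, both at the start of the chromosome 9 group, and the one on chromosome 13. The counts over time are therefore also given without these 10. The comparisons of cover and strength were not repeated without them.

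Between the marks, the domains were covered most by H3K27ac and least by H3K27me3. The mean share of bases was 85.4% ± 11.7 under H3K27ac, 44.8% ± 6.28 under H3K4me3 and 2.94% ± 1.33 under H3K27me3 (SD, n = 4 libraries each). No library of one mark overlapped those of another. The other shared regions had the same order of marks, also with no overlap, with means of 76.4%, 42.4% and 2.92%, so the order is not particular to the domains. At the domains the differences were 40.6 points for H3K27ac minus H3K4me3, 82.5 for H3K27ac minus H3K27me3 and 41.9 for H3K4me3 minus H3K27me3. Each had an exact 2-sided permutation p and adjusted p of 0.0286, the smallest that 4 against 4 libraries can give. The lists of each mark were called separately and differ in length, so that the comparison holds for the called peaks and not for the amount of each modification.

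To follow the domains in time, the regions that all 4 libraries of a mark shared were ordered in each library by total signal, the summed coverage under a region's peaks. The order was expressed as normal scores, and 4 was tested against 2 dpi with limma over all shared regions of the mark. A shift is the mean normal score at 4 dpi minus that at 2 dpi, and a region was called to rise or fall at a Benjamini-Hochberg adjusted p under 0.05. A percentile below is the rank of total signal among the shared regions of the mark in that library. H3K18la shifts at the domains lay on both sides of 0, with 131 above, 132 below and a median of -0.0002. There were 2 domains that rose, beside 0.0429% of all shared H3K18la regions, and 1 that fell, beside 0.0751%. A domain could reach 8 kb through peaks that were wide at 1 time point only. Total signal grows with the covered length, so these H3K18la calls are not independent of the rule.

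The domain that fell lay on chromosome 17 from 48498654 to 48509375. Its percentiles were 96.3 and 92.2 at 4 dpi, against 99.6 and 99.6 at 2 dpi, and the shift was -1.07 (SE 0.13, limma adjusted p = 0.0116). H3K18la peaks covered 9060 and 9385 bp at 4 dpi, against 10722 and 10391 bp at 2 dpi, so that the domain stayed broad while it lost rank. A single peak of 2 dpi replicate 1 spanned the whole domain, so the time point with the higher rank also set its width. The domain had no H3K4me3 or H3K27me3 peak in any library. The call held when any one library was left out (adjusted p from 0.0018 to 0.0458).

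The domains that rose were on chromosome 8 (122864327 to 122876707) and chromosome 13 (13551944 to 13568099). They were named for their calls, which favour time points that do not overlap. On chromosome 8 the percentiles were 99.8 and 99.6 at 4 dpi, against 95.4 and 98.4 at 2 dpi, with a shift of 0.83 (SE 0.14, limma adjusted p = 0.048), and peaks covered 9534 and 11187 bp at 4 dpi, against 7064 and 8899 bp at 2 dpi. On chromosome 13 the percentiles were 99.8 and 99.8 at 4 dpi, against 98.8 and 99.1 at 2 dpi, with a shift of 0.56 (SE 0.096, limma adjusted p = 0.048). In both domains the groups did not overlap, and the calls held in 2 and in 1 of the 4 fits that left out a library. The counts that rose and fell depended on single libraries: leaving out any of them changed the counts, at the domains and over all shared H3K18la regions. With a variance that was neither trended nor robust no domain was called, nor by maximum signal. At an unadjusted limma p under 0.05, 6 and 6 of the 263 domains rose and fell with that variance, beside 543 and 533 of all 9325 shared regions. By maximum signal 11 and 17 did, beside 455 and 529.

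H3K4me3 changed at many domains. Of the 207 shared H3K4me3 regions that met a domain, 65 fell (31.4%), beside 8.07% of all 13298 shared H3K4me3 regions, and 9 rose (4.35%), beside 7.78%. The median shift was -0.30 at the domains and 0.01 over all shared H3K4me3 regions, and 146 of the 207 shifts were below 0. At the 78 domains that met no shared H3K4me3 region nothing could be tested. The median percentile of these 207 regions was 73.3 and 71.6 at 4 dpi, against 78.6 and 85.5 at 2 dpi, with no overlap between the time points. Peaks covered 1.38 and 1.10 Mb of these regions at 4 dpi, against 1.17 and 1.28 Mb at 2 dpi, so that the covered length overlapped between the time points.

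The lowest adjusted p belonged to regions at domains on chromosomes 1, 2, 6, 7 and 5. The H3K4me3 region on chromosome 1 from 92899165 to 92909104 had percentiles of 88.3 and 89.7 at 4 dpi, against 99.0 and 99.0 at 2 dpi, and a shift of -1.10 (SE 0.090, limma adjusted p = 3.8e-05). The one on chromosome 2 from 172233462 to 172245336 had percentiles of 92.2 and 90.6 at 4 dpi, against 99.3 and 99.4 at 2 dpi. At both, the replicates of a time point lay close together and the time points did not overlap, which a choice by lowest adjusted p favours.

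On chromosome 6, the region from 123236542 to 123246464 had percentiles of 66.0 and 71.6 at 4 dpi, against 96.2 and 97.2 at 2 dpi, a shift of -1.35 (SE 0.11, limma adjusted p = 3.8e-05). The region on chromosome 7 from 139562714 to 139573493 had percentiles of 90.9 and 89.7 at 4 dpi, against 99.2 and 99.2 at 2 dpi. The region on chromosome 5 from 110749962 to 110754988 had the largest shift of the 5, at -1.47 (SE 0.14, limma adjusted p = 8.5e-05), with percentiles of 28.6 and 34.0 at 4 dpi, against 83.5 and 83.6 at 2 dpi. These 5 were chosen for the lowest adjusted p, so close replicates and separate time points follow from the choice and add no support. H3K18la at the same 5 domains was not called, with shifts of -0.18, -0.29, -0.16, 0.20 and -0.80 in the order given.

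The 9 H3K4me3 regions that rose had smaller shifts, from 0.29 to 0.49. At the region on chromosome 13 from 12655446 to 12667337 the percentiles were 99.5 and 99.5 at 4 dpi, against 97.9 and 98.2 at 2 dpi (shift 0.49, SE 0.078, limma adjusted p = 0.0024). At that on chromosome 8 from 85700577 to 85714028 they were 99.8 and 99.8 at 4 dpi, against 98.8 and 99.3 at 2 dpi. Both were called in each fit that left out a library, but their direction turned in 1 of 8 alternatives. Of the 9, 3 lay in the 2 pairs of domains on chromosome 6 between 47627266 and 47743609.

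The number of H3K4me3 calls depended on the libraries and the measure. Leaving out a library moved the count that fell in both directions, as it did over all shared H3K4me3 regions. Of the 65 that fell, 25 were called in each of the 4 fits that left out a library, and 64 kept their direction in all 8 alternatives run on them. Of the 9 that rose, 2 were called in each of these fits and 5 kept their direction in all 8. By maximum signal 16 fell (7.73%) and 3 rose (1.45%), beside 1.24% and 1.49% of all shared H3K4me3 regions, with 167 of 207 shifts below 0. By mean signal per called base or with plain limma none was called. At an unadjusted limma p under 0.05, 35 and 68 of 207 fell in these 2 settings, beside 1029 and 1895 of all 13298. Without the 10 domains that had a peak in every list, 62 of 197 fell and 8 rose.

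To see whether the H3K4me3 change went with the width of H3K18la, all shared H3K4me3 regions were set apart by the widest kind of shared H3K18la region they met, a division made after the counts were seen. The share that fell was 31.4% at the domains, 18.4% of 1103 regions at shared H3K18la regions 4 to 8 kb wide, 11.2% of 2923 at those under 4 kb and 5.28% of 9065 with no shared H3K18la region. The share that rose was 4.35%, 5.89%, 5.27% and 8.90% in the same order. The median shifts were -0.30, -0.14, -0.09 and 0.07. The shares that fell thus ordered by the width of H3K18la, which was not tested over libraries, where 2 against 2 cannot go below an exact permutation p of 0.333.

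H3K4me3 regions at the domains were wider, with a median of 6066 bp, than those without shared H3K18la, with 2915 bp, so the shares were also taken within width classes. Among H3K4me3 regions 2 to 4 kb wide, 36.8% of 57 at the domains fell, against 18.8%, 12.7% and 4.68% in the other classes, from wide H3K18la to none. At 4 to 6 kb the share was 36.1% of 36 at the domains, against 21.5%, 6.21% and 7.02%. At 6 to 8 kb it was 33.3% of 30, against 15.7%, 8.89% and 13.6%, and at 8 to 12 kb 32.0% of 50, against 13.0%, 7.41% and 25.0%. Outside these widths the domains did not have the highest share. Under 2 kb, 1 of 9 at the domains fell, against 20.4%, 16.1% and 3.50%, and at 12 kb and over 4 of 25 fell and 4 rose, while 0 of 12, 0 of 5 and 5 of 10 fell in the other classes. In the 2 to 4 kb class at the domains, median percentiles were 14.7 and 16.4 at 4 dpi, against 34.7 and 35.02 at 2 dpi.

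**Figure D4:**
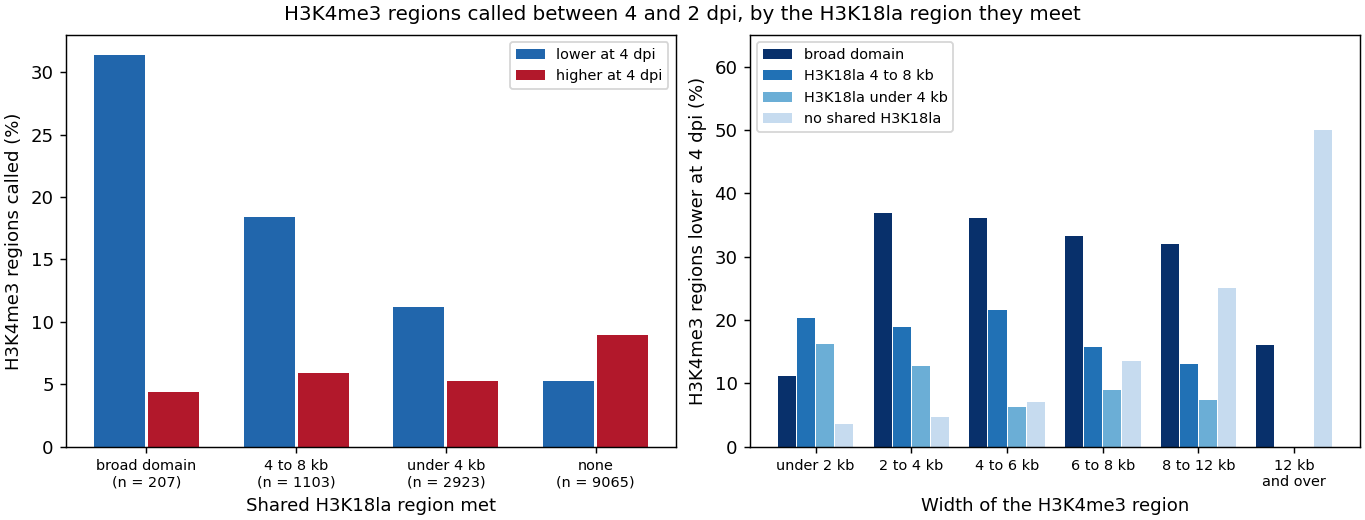
Percent of shared H3K4me3 regions called lower or higher at 4 than at 2 dpi (limma adjusted p under 0.05) by the shared H3K18la region they meet (left), and percent called lower within width classes of the H3K4me3 region (right; no bar means none was called). At the domains 31.4% were lower and 4.35% higher, while with no shared H3K18la region 5.28% were lower and 8.90% higher.

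The H3K18la shifts at the domains were also set beside those of H3K4me3. At the 61 domains where H3K4me3 fell, the median H3K18la shift was -0.16, with 44 below 0 and 17 above, and none of these domains was called for H3K18la. At the 9 where it rose, the median H3K18la shift was 0.19, with 8 above 0. At the 124 domains with an H3K4me3 region that was not called, it was 0.04, with 73 above and 51 below 0. Over the 207 H3K4me3 regions the shifts of the 2 marks had a Pearson r of 0.34 and a Spearman rho of 0.34, given as a description, since regions of one library share its depth and background. For H3K27ac, the median shift was -0.13 where H3K4me3 fell, with 47 of 61 below 0 and 14 above. It was -0.08 where H3K4me3 rose, with 5 below and 4 above 0. Where H3K4me3 was not called it was -0.003, with 63 below and 59 above 0. These are shifts of total signal, and the sign of the H3K27ac shifts depended on the measure, as given below.

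**Figure D5:**
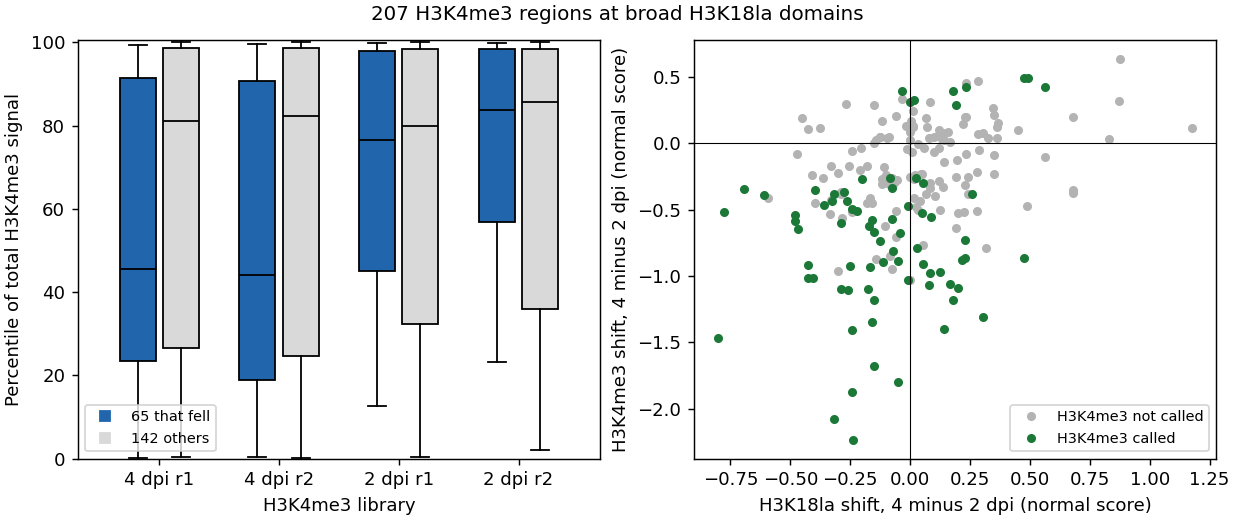
The 207 H3K4me3 regions at broad H3K18la domains. Left, percentile of total signal in each library for the 65 regions that fell and the 142 others (boxes are quartiles with the median, whiskers the full range; the 65 were chosen by these values). Right, shift of H3K4me3 against shift of H3K18la at the same domain, one point per region. Most points lie below 0 on the y axis (146 of 207), while H3K18la shifts lie on both sides of 0.

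H3K27ac changed at few domains. Of 243 shared H3K27ac regions at the domains, 3 rose, beside 0.178% of all shared H3K27ac regions, and 1 fell, beside 0.00741%. Of the 3, 2 were at the domains where H3K18la rose. On chromosome 13 the H3K27ac region from 13544883 to 13584065 had percentiles of 99.4 and 99.6 at 4 dpi, against 96.9 and 97.0 at 2 dpi (shift 0.73, SE 0.11, limma adjusted p = 0.0289), and this call held without any one library. On chromosome 8 the region from 122854903 to 122893226 had percentiles of 98.8 and 98.5 at 4 dpi, against 92.1 and 80.1 at 2 dpi (shift 1.08, SE 0.18, limma adjusted p = 0.0381), but this call held in 2 of the 4 fits that left out a library and its direction in 7 of 8 alternatives.

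The third that rose, on chromosome 13 from 12636339 to 12667467, had percentiles of 99.6 and 99.8 at 4 dpi, against 98.7 and 97.7 at 2 dpi. The H3K18la shift of its domain was 0.47 (SE 0.094, limma adjusted p = 0.069) and its H3K4me3 region was the first named above among those that rose. The region that fell, on chromosome 19 from 6335221 to 6357141, had percentiles of 96.2 and 97.6 at 4 dpi, against 99.4 and 99.5 at 2 dpi, with an H3K18la shift of -0.04. At the 39183 bp region on chromosome 13, peaks covered 39.2 and 19.4 kb at 4 dpi, against 15.4 and 10.2 kb at 2 dpi. Leaving out the wide library, or any other, changed the counts at the domains and over all shared H3K27ac regions. The sign of the H3K27ac shifts at the domains depended on the measure. By total signal 131 of 243 were below 0 and 111 above, while by mean signal per called base 47 were below and 196 above. By maximum signal 99 of 243 were below 0, with most of them above. By maximum signal none was called, nor with plain limma. At an unadjusted limma p under 0.05, 22 of 243 rose and 4 fell by maximum signal, beside 753 and 662 of all 13494 shared H3K27ac regions. With plain limma 4 and 2 did, beside 915 and 608.

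Of 17 shared H3K27me3 regions at the domains, 1 rose, beside 0.892% of all shared H3K27me3 regions, and none fell, beside 0.0532%. At an unadjusted limma p under 0.05, 1 fell, beside 468 of all 7515. The one that rose was on chromosome 6 from 47648373 to 47663973, within the domain from 47646861 to 47663973. Its percentiles were 66.1 and 83.7 at 4 dpi, against 11.4 and 2.50 at 2 dpi, a shift of 2.28 (SE 0.31, limma adjusted p = 0.0236). Peaks covered 12452 and 15601 bp at 4 dpi, against 1928 and 1922 bp at 2 dpi. In the neighbouring domain from 47627266 to 47645461, H3K27me3 covered 81.3% and 86.4% at 4 dpi, against 19.5% and 0% at 2 dpi, and in the one from 47718894 to 47730847 it covered 92.0% and 87.5% at 4 dpi, against 36.9% and 0% at 2 dpi. These 2 met no shared H3K27me3 region and were not tested. Over the genome the H3K27me3 lists covered 79.8 and 80.9 Mb at 4 dpi, against 52.1 and 61.0 Mb at 2 dpi. H3K27ac and H3K4me3 stayed over the 3 domains, with at least 64.6% of their bases under H3K4me3 in every library. The call was lost without 1 of the 4 libraries (adjusted p from 0.0049 to 0.151), 4 dpi replicate 2, and with plain limma or by maximum signal (4 rose at an unadjusted p under 0.05 in each). Over all 7515 shared H3K27me3 regions, 520 rose at that unadjusted p with plain limma and 335 by maximum signal. The domain of the called region is one of the 10 with a peak in all 16 lists. Without these 10, 0 H3K27me3 regions rose, while 2 rose and 1 fell for H3K18la and 2 rose and 1 fell for H3K27ac.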

How the data were processed

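The authors called peaks in each library alone with SEACR 1.3 and deposited 16 lists. Before that, per the methods and the submitters' processing notes, Trim Galore 0.6.6 removed adapters, Bowtie2 2.4.4 aligned the fragments, and SAMtools 1.13 with bedtools 2.30 turned the alignments into coverage. Each peak has a total signal and a maximum signal, in deposited fragment coverage that was not scaled between libraries. Read depth is unknown, so no counting interval is given and signal was tested only as ranks within a library. The labels name GRCm39, and the methods also name mm10, but some peaks end beyond the GRCm38 chromosome ends. Only GRCm38 was at hand, so no gene, promoter or sequence is given and the gene lists drawn up for these domains were not used. H3K27me3 replicates at 4 dpi follow the labels, which number them the other way round from the deposited lists.

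Peaks on chromosomes 1 to 19, X and Y were merged at 1 bp of overlap within each mark. Shared regions were tested with limma 3.58.1 in R 4.3.3 (trended, robust variance) on normal scores of within-library ranks, with Benjamini-Hochberg adjustment over all shared regions of a mark and a threshold of 0.05. Other comparisons used exact 2-sided permutation tests over libraries, in Python 3.11.15 with scipy 1.17.1. The limma step was tested on simulated data. Domains named are the 10 widest, those called for H3K18la, the 3 with the highest and lowest H3K27ac and the highest H3K4me3 and H3K27me3 cover, and those of the 5 lowest adjusted p of other marks (any other is a called region or was chosen after its values were seen). The members and lists were chosen with earlier results of these data known. Alternatives were widths of 6 and 10 kb, joined peaks, other signal measures, plain limma, a replicate block and leaving out each library. The methods state that blacklisted peaks were removed, which was not checked on this build.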

Additional observations from a re-analysis of the deposited data

Results flagged for a closer look

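The difference in H3K27ac cover between the 25 domains without and the 189 domains with H3K4me3 in all libraries was -5.27 percentage points in 4 dpi replicate 1, far from the other 3 libraries, which lay between -29.1 and -32.3. Of 27 sets of 4 libraries examined this way it was the one that stood apart, and chance marks about 1 in 20.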

How the results depend on the processing

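The number of domains was 719 at a width of 6 kb, 113 at 10 kb, 464 with peaks up to 500 bp apart joined and 53 by bases called in all 4 libraries, and 165 to 246 when a library was left out. With plain limma and by mean signal per called base 0 regions of any mark at the domains rose or fell. For H3K4me3, 68 and 35 of 207 fell at an unadjusted limma p under 0.05, beside 1895 and 1029 of all 13298. By maximum signal 0 were called for H3K18la, H3K27ac and H3K27me3, while 3 rose and 16 fell for H3K4me3, beside 1.49% and 1.24% of all shared regions. At 10 kb 32 of 100 H3K4me3 regions fell, beside 8.07% of all, and without the domains with a peak in all 16 lists 0 H3K27me3 regions rose. Leaving out a library gave 0 to 12 that rose and 1 to 17 that fell for H3K18la, 2 to 7 and 0 to 9 for H3K27ac, 3 to 14 and 38 to 79 for H3K4me3, and 0 to 2 that rose for H3K27me3; the lone library left in a group is then assumed to vary like the others.

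Libraries with equal replicate numbers showed little shared deviation over regions. The correlation of deviations between equal numbers was -0.0648 for H3K18la, 0.0862 for H3K27ac, -0.0027 for H3K4me3 and -0.0520 for H3K27me3. Such values cannot show whether equal numbers share mice or cells. With the number as a replicate block 12 rose (4.56%) and 10 fell (3.80%) for H3K18la, beside 0.922% and 1.42% of all shared regions. For H3K27ac 10 rose and 10 fell (4.12% each), beside 3.31% and 0.993%. For H3K4me3 11 rose (5.31%) and 70 fell (33.8%), beside 9.04% and 9.02%, and for H3K27me3 3 of 17 rose, beside 2.49%.

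Small differences between domains and other shared regions changed sign. At 6 kb they were -0.55 points for H3K27me3 cover, -3.57 for H3K4me3 strength and -0.45 for H3K27me3 strength, and with the upper 75% of each list -0.12 for H3K27me3 cover and -0.34 for its strength. Leaving out a library gave -0.16 to 0.24 for H3K27me3 cover and -0.74 to 1.66 for H3K4me3 strength. It gave 6.77 to 11.3 for H3K27ac cover and 16.9 to 21.5 for its strength. Against shared regions 4 to 8 kb wide these were 6.19 and 10.9, with 5.51 for H3K4me3 strength and 9.10 for H3K27me3 strength, and at 6 kb H3K27ac strength was 15.8. At 10 kb H3K4me3 strength was 9.50. By total signal the strength differences were 18.6 for H3K27ac, 10.3 for H3K4me3 and 11.6 for H3K27me3. The causes were not tested.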
